A study of Homo sapiens with 6 samples.

Results

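A set of 6 genes that activate or carry the response to glucocorticoids was followed in IMR90 fibroblasts under oncogenic RAS signalling. They are HSD11B1 and H6PD, which act together to regenerate active cortisol inside cells, NR3C1, the gene of the glucocorticoid receptor, and TSC22D3, FKBP5 and ZBTB16, which the receptor induces in many cell types. They were chosen by their symbols, with the values of the comparison of 72 h with 30 h already known, so their differences between the groups are given as descriptions with no test. All 6 have a row in the deposited table of 58219 genes, and 5 passed the filter on low values, which asked for 10 or more normalised counts in 3 or more libraries. ZBTB16 did not pass.

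IMR90 cells are untransformed human lung fibroblasts in culture. All 6 libraries came from IMR90 cells that express ER-RASG12V, an oncogenic RAS joined to an oestrogen receptor domain and switched on by 4-hydroxytamoxifen (4OHT). In the 72 h group (3 libraries, replicates A, B and C, labelled committed to senescence) the cells received 100 nM 4OHT for 72 h, and in the 30 h group (3 libraries, replicates A, B and C, labelled uncommitted controls) for 30 h. Both groups therefore carry the construct and received the drug, no group without 4OHT is analysed here, and commitment cannot be told apart from time under RAS. The sample titles write the times as 3 and 1.5 days, whereas the protocol and the table's columns write 72 h and 30 h. The growth medium in the labels was DMEM with foetal bovine serum, antibiotics and glutamine. No glucocorticoid is named among its parts, but these data do not show whether the serum carried cortisol or cortisone. Whether replicates were separate cultures is not stated in the labels, and p-values then reflect only the differences among these libraries, which could be technical.

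Cortisol is a steroid hormone of the adrenal cortex that circulates together with its inactive form, cortisone. Inside many cells, lung fibroblasts among them, the enzyme encoded by HSD11B1 converts cortisone back to cortisol in the endoplasmic reticulum, using NADPH that the enzyme encoded by H6PD makes there from a sugar phosphate. Cortisol binds the receptor NR3C1, which waits in the cytoplasm with heat shock proteins and immunophilins, then enters the nucleus, induces genes such as TSC22D3, FKBP5 and ZBTB16, and restrains genes of inflammation that NF-kB and AP-1 drive.

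The libraries held 13248905 to 15703544 reads at 72 h and 13221152 to 14089651 reads at 30 h. Libraries of the same group were more different than counting error alone gives (chi-square over degrees of freedom of 3.13 to 14.9 within groups and 100 to 146 across them). The second principal component (7% of the variance) set the 2 libraries lettered C away from the rest. Mitochondrial genes took 4.23% to 4.83% of the reads of 72 h libraries and 3.56% to 4.06% of those of 30 h. The summed level of 9 fibroblast markers was 60860 to 69949 normalised counts at 72 h and 173181 to 183382 at 30 h. VIM alone, with means of 40009 at 72 h and 96300 at 30 h, carried most of this sum. Of the 9 markers 6, COL1A1, COL1A2, COL3A1, PDGFRB, THY1 and VIM, fell, while PDGFRA, DCN and LUM did not pass the threshold. Markers of 4 other cell types were near 0 or were carried by a single gene. The 6 epithelial markers summed to 4.20 to 6.98 normalised counts at 72 h and 3.90 to 10.2 at 30 h, with 4 at 0 reads in all libraries, and the 6 immune markers to 10.2 to 16.8 and 8.13 to 15.8, with CD3E at 0. The 5 endothelial markers had sums of 410 to 493 in 72 h libraries and of 670 to 933 in 30 h libraries; of them only TEK passed the filter, and it carried nearly all of these sums. Summed over the 3 libraries, KDR had 40 reads at 72 h and 11 at 30 h, PECAM1 20 at 72 h and 9 at 30 h and VWF 30 at 72 h and 21 at 30 h, in the opposite direction to TEK, and CDH5 had 0. The 4 adipocyte markers had sums of 0 to 2.10 in 72 h libraries and of 16.9 to 30.2 in 30 h libraries, with ADIPOQ and LEP at 0 reads. The part of these shifts in the results below was not tested.

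Promoter windows of the RefSeq table (GRCh38.p14, from 250 bases before to 50 bases after an annotated start) were found for 5 of the 6 genes, ZBTB16 being the other, with 15 windows in all. The windows of 3 genes are shown, 5′ to 3′ on the gene's strand, because HSD11B1 and FKBP5 had the largest differences between the groups, in opposite directions, and TSC22D3 the smallest. Capitals mark letters of any motif searched. The HSD11B1 window lies at chr1:209685929-209686228 (plus strand), the FKBP5 window at chr6:35688866-35689165 (minus strand, a start that 3 of 4 GENCODE transcripts lie close to), and the TSC22D3 window at chrX:107717013-107717312 (minus strand, a start inside the gene).
HSD11B1: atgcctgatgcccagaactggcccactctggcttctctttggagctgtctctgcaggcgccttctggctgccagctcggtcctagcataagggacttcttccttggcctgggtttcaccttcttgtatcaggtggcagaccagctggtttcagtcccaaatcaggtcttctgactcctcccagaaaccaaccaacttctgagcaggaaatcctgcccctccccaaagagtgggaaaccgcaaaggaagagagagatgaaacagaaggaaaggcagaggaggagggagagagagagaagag
FKBP5: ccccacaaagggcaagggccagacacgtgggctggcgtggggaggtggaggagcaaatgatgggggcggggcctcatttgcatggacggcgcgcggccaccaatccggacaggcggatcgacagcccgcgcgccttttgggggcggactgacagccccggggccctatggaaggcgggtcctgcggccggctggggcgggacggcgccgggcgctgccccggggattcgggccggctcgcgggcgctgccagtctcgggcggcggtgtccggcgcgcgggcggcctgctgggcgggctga
TSC22D3: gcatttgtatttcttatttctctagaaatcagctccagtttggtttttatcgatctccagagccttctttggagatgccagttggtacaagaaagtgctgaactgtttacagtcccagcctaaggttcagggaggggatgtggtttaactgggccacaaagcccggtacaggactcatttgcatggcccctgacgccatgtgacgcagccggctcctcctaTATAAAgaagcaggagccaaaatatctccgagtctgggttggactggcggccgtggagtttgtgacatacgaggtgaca

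A set of 6 motifs was searched on both strands. The full glucocorticoid response element, read as GNACA and TGTNC separated by 3 bases, was in 0 of the 15 windows and in 0.390% of all 35116 windows of the table. A single arm of it, TGTTCT, was in 1 window of H6PD, 204 bases before the start, and in the other FKBP5 window, at the start itself, against 14.8% of all windows. The TATA box letters TATAAA, held by 11.5% of all windows, stood 29 bases before the TSC22D3 start shown and in 1 NR3C1 window. The C/EBP letters TTNNGNAA, held by 36.8% of all windows, were in 5 of the 7 NR3C1 windows and in 1 other TSC22D3 window. The NF-kB letters GGNNTTTCC and the AP-1 letters TGANTCA, held by 6.26% and 7.71% of all windows, were each in 1 NR3C1 window, and the NF-kB match there overlaps a C/EBP match. The HSD11B1 window held none of the 6 motifs, which says only that these letters are not in this window. GENCODE 29 gives HSD11B1 a further start at position 209704846 of chromosome 1, outside the window, and counts per gene do not tell which start was used.

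HSD11B1, the cortisol-regenerating enzyme (ENSG00000117594.9, chromosome 1, 209686178 to 209734950, GRCh38), showed the largest difference of the 6 genes. It had 283, 249 and 309 normalised counts in the 72 h libraries A, B and C, against 13.6, 13.2 and 27.4 in the 30 h libraries A, B and C. The lowest library of 72 h lay far above the highest of 30 h, and replicate C was the highest within each group. The means were 280.3 ± 30.6 at 72 h and 18.1 ± 8.08 at 30 h (SD, n = 3 each), a log2 fold change of 3.95 ± 0.26 (SE), or 15.5-fold. The 30 h level rests on 53 reads over 3 libraries and the 72 h level on 857, so the low side carries the larger counting error. Without the 30 h library C, the highest of its group, the log2 fold change was 4.28. Since these are bulk samples, fewer cells of a type and less RNA per cell cannot be told apart, here or for any other gene. No exon of another GENCODE gene overlaps those of HSD11B1.

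H6PD, the supplier of NADPH to that enzyme (ENSG00000049239.12, chromosome 1, 9234775 to 9271337), was also higher at 72 h, by a smaller factor. Its values were 1810, 1784 and 2075 normalised counts in the 72 h libraries A, B and C, against 1334, 1294 and 1335 at 30 h. The groups did not overlap, and the 3 libraries of 30 h lay within a narrow range. The means were 1889 ± 161 at 72 h and 1321 ± 23.1 at 30 h, a log2 fold change of 0.51 ± 0.07 (SE).

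NR3C1, the glucocorticoid receptor (ENSG00000113580.14, chromosome 5, 143277931 to 143435512), had 2829, 2473 and 2720 normalised counts in the 72 h libraries A, B and C, against 2173, 2147 and 2319 at 30 h. The groups lay close together without overlapping. The means of 2674 ± 182 at 72 h and 2213 ± 92.9 at 30 h gave a log2 fold change of 0.27 ± 0.06 (SE), a ratio of 1.21.

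The receptor's own induced genes among the 6 did not rise with HSD11B1. These data hold RNA only, without levels of cortisol or cortisone, so activity of the enzyme and of the receptor was not tested. FKBP5, an immunophilin that lowers the receptor's affinity for hormone and is itself induced by the receptor (ENSG00000096060.14, chromosome 6, 35573585 to 35728583), had 136, 131 and 135 normalised counts in the 72 h libraries, against 283, 259 and 256 at 30 h. Every library of 72 h was lower than every library of 30 h, and the 72 h values were nearly equal to each other. The means were 134 ± 2.80 at 72 h and 266 ± 14.5 at 30 h, a log2 fold change of -0.98 ± 0.09 (SE).

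TSC22D3, which encodes GILZ, a leucine zipper protein that dampens inflammatory signalling (ENSG00000157514.16, chromosome X, 107713221 to 107777342), had 95.0, 81.1 and 94.4 normalised counts in the 72 h libraries, against 90.7, 94.5 and 101 at 30 h. The groups overlapped, and the log2 fold change of -0.08 ± 0.13 (SE) was smaller than its error. Counts per gene pool its transcripts from several starts, and 71 bases of its exons overlap NCBP2L on the opposite strand, so a shift between them would not be seen. ZBTB16, the zinc finger factor PLZF (ENSG00000109906.13, chromosome 11, 114059593 to 114250676), had 0 reads in all 6 libraries. A count of 0 allows up to 3 reads, which is 2.62 to 3.15 normalised counts at 72 h and 2.92 to 3.16 at 30 h, counting error only, so no change under that level was detectable.

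**Figure D1:**
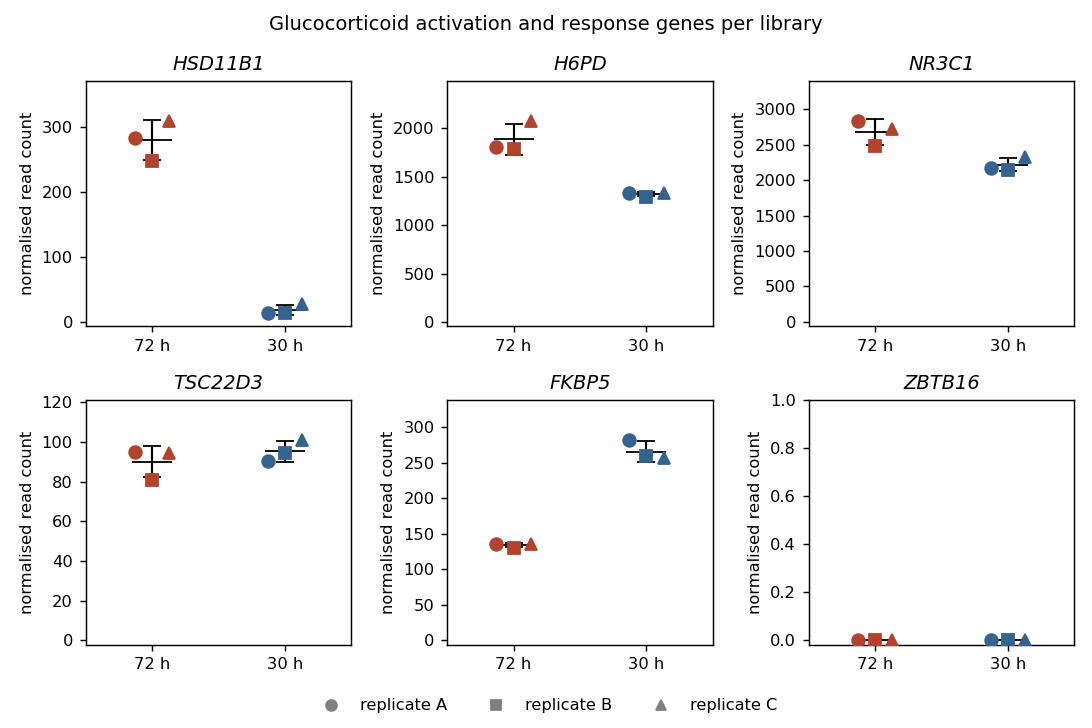
Normalised read counts of the 6 genes in each library, on linear axes from 0, with 72 h on the left and 30 h on the right; points are libraries, horizontal bars are means and whiskers are SD (n = 3). HSD11B1 lies between 249 and 309 at 72 h and between 13.2 and 27.4 at 30 h, FKBP5 is lower at 72 h, TSC22D3 overlaps and ZBTB16 is at 0.

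Of the 5 genes that passed the filter, 3 were past an adjusted p of 0.05 as higher and 1 as lower, in limma and in each of the 17 alternatives run. In the same fit 23.6% of all 13315 genes tested were higher, 25.0% lower and 48.6% either, and since the genes were chosen with this contrast known, nothing is read from their share. The authors' deposited table gave log2 fold changes of 3.96, 0.52, 0.27, -0.08 and -0.99 for HSD11B1, H6PD, NR3C1, TSC22D3 and FKBP5.

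Divided by exon length, the levels put HSD11B1 at a different place among the 6 genes at each time. At 72 h NR3C1 was at 292 normalised reads per kilobase (269.6 to 308 over the libraries), H6PD at 203 (191 to 223), HSD11B1 at 185 (164 to 205), TSC22D3 at 18.9 (17.0 to 19.9) and FKBP5 at 12.6 (12.3 to 12.8). At 30 h NR3C1 was at 241 (234 to 253), H6PD at 142 (139 to 143), FKBP5 at 25.0 (24.1 to 26.6), TSC22D3 at 20.0 (19.0 to 21.2) and HSD11B1 at 12.0 (8.73 to 18.1). HSD11B1 was thus lowest of the 5 detected genes per length at 30 h, while at 72 h its range overlapped that of H6PD. The other neighbours in each order did not overlap. The lengths are those of all annotated exons together, 1513 bases for HSD11B1 and 10628 for FKBP5, so genes with long or rarely used exons appear lower.

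**Figure D2:**
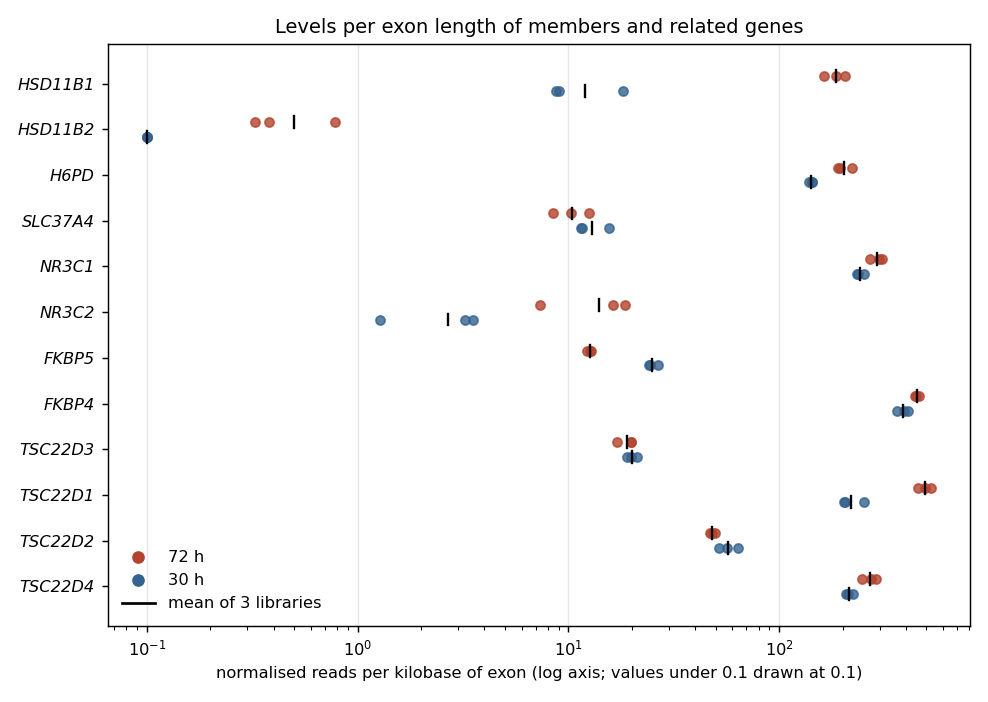
Normalised reads per kilobase of exon on a log axis for 5 of the 6 genes and related genes; points are libraries (72 h above, 30 h below in each row) and black ticks are means of 3 libraries. HSD11B1 lies between 164 and 205 at 72 h and between 8.73 and 18.1 at 30 h, and HSD11B2 is under 1 in every library.

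Other genes of the pathway were taken from lists and were tested with limma. The lists were chosen with earlier results of these data known, so their counts and adjusted p-values are descriptions and no independent support. Of all genes tested 23.6% were higher and 25.0% lower, and a list's count near those shares is no result about the list. Among 22 further genes of corticosteroid synthesis, conversion and export, 6 passed the filter, of which 3 rose, 2 fell and 1 did not pass the threshold. HSD11B2, the enzyme that inactivates cortisol to cortisone, had 1, 1 and 2 reads at 72 h and 0 in each library of 30 h, at or under the floor of 3 reads per library, so no fold is given. The enzymes that make cortisol from cholesterol in the adrenal gland were near 0, with CYP11B1, CYP17A1, HSD3B1 and HSD3B2 at 0 reads in all libraries. AKR1C1, a reductase of steroids and other carbonyls, had 190, 141 and 315 normalised counts at 72 h, against 22.4, 19.3 and 26.4 at 30 h, with a log2 fold change of 3.12 ± 0.28 (SE; adjusted p = 3.9e-05). Reads of AKR1C1 and its close copies AKR1C2 and AKR1C3 may be split between them.

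SRD5A3, a steroid reductase family member that serves protein glycosylation, rose with a log2 fold change of 0.79 (adjusted p = 0.000567), and SRD5A1, which begins the breakdown of several steroids, fell with -0.47 (adjusted p = 0.00121). CYP3A5, a cytochrome that oxidises steroids and the third gene counted as higher, had 23.5, 21.8 and 28.3 normalised counts at 72 h, against 1.95, 1.02 and 2.11 at 30 h. It passed the filter through the 72 h libraries alone, so its direction was set by the filter. ABCB1, an efflux pump whose substrates include cortisol, had 23.5, 17.4 and 11.5 at 72 h, against 50.7, 49.8 and 72.8 at 30 h (log2 fold change -1.70, adjusted p = 0.000826).

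The differences around H6PD were small. Of 9 genes of sugar phosphate transport into the endoplasmic reticulum and of the pentose phosphate pathway, 2 rose, 3 fell and 4 did not pass, with a median log2 fold change of -0.19. SLC37A4, the transporter that brings the substrate of H6PD into the endoplasmic reticulum, had 52.1, 77.6 and 64.0 normalised counts at 72 h, against 96.5, 71.1 and 71.7 at 30 h (log2 fold change -0.30 ± 0.19 SE, adjusted p = 0.219), and the groups overlapped. G6PC3, a phosphatase that competes for that substrate, rose with 0.35 (adjusted p = 0.00164), and PGD, a cytosolic NADPH producer, with 0.26 (adjusted p = 0.00669). TALDO1, of the pathway's second phase, fell with -0.19 (adjusted p = 0.00882). RPE, of the same phase, also fell, with -0.19 (adjusted p = 0.0231). Without 72 h A or 72 h B the count that fell was 1, and RPE was among the calls lost.

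Among the nuclear receptors most closely related to NR3C1, the mineralocorticoid receptor stood out in size. NR3C2, which also binds cortisol with high affinity, had 107, 123 and 48.2 normalised counts in the 72 h libraries A, B and C, against 21.4, 23.4 and 8.44 at 30 h. The groups did not overlap, and library C was the lowest of each. The log2 fold change was 2.33 ± 0.48 (SE; adjusted p = 0.00662), from 14.1 reads per kilobase at 72 h and 2.69 at 30 h, which at both times was below the level of NR3C1. Of the 8 genes listed, 4 passed the filter, of which 2 rose, 1 fell and 1 did not pass, and their median log2 fold change was 0.24. ESRRA, an orphan receptor of mitochondrial genes, rose with 0.56 (adjusted p = 0.00142). ESR1 fell with -0.47 (adjusted p = 0.000128), but reads of the construct that map to it cannot be told apart from the cell's own.

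Most genes of the proteins that hold the receptor ready in the cytoplasm did not pass the threshold. Of 19 chaperones and immunophilins, all of them tested, none fell (0), 5 rose and the other 14 did not pass. The share that rose was 26.3%, near the 23.6% of all genes tested, and the share that fell was 0%, against 25.0%. Of all genes tested, 48.6% passed in either direction. The median log2 fold change of the list was 0.04. With 0 falls called by limma, 0 were also found at an unadjusted p under 0.05, by edgeR and by DESeq2. Without 72 h C the count of falls was 1 (HSPA1A, an inducible heat shock protein whose reads may be split with its near copy HSPA1B), and without 30 h C it was 1 (DNAJB1, a co-chaperone). FKBP4, the immunophilin that takes the place of FKBP5 when hormone binds, had 2320, 2383 and 2275 normalised counts at 72 h, against 2110.5, 2031 and 1886 at 30 h (log2 fold change 0.21 ± 0.06 SE, adjusted p = 0.0118), in the opposite direction to FKBP5 and without overlap. Per kilobase it was at 449 at 72 h and 388 at 30 h, far above FKBP5 at both times. BAG1, a co-chaperone that binds the receptor, rose with 0.56 (adjusted p = 0.00058), HSPA4, an exchange factor of heat shock proteins, with 0.35 (adjusted p = 0.000847), and ST13, the Hsp70-interacting protein HIP, with 0.23 (adjusted p = 0.00459).

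The list of coregulators that act with the receptor in the nucleus held 14 genes, all tested. Of them 5 (35.7%) rose, 3 (21.4%) fell and 6 did not pass, near the shares over all genes, with a median log2 fold change of 0.09. PPARGC1A, a coactivator of metabolic genes, had 66.4, 60.2 and 77.6 normalised counts at 72 h, against 13.6, 16.3 and 13.7 at 30 h, a log2 fold change of 2.15 ± 0.20 (SE; adjusted p = 2.54e-05). The other changes were small, such as MED1, a subunit of Mediator that receptors bind (0.39, adjusted p = 0.000314), EP300, a histone acetyltransferase (0.33, adjusted p = 0.00129), and MED14, a core Mediator subunit (-0.33, adjusted p = 0.00346). NCOR1, a corepressor, fell with a log2 fold change of -0.29.

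The 3 other genes of the family of TSC22D3 were all tested, too few to set against the 48.6% of all genes called, and 2 rose and 1 fell. TSC22D1, a relative first found as a target of TGF-beta, had 4526, 4243 and 3917 normalised counts at 72 h, against 1738, 1759 and 2161 at 30 h, a log2 fold change of 1.17 ± 0.09 (SE; adjusted p = 1.74e-05). TSC22D4 rose with 0.33 (adjusted p = 0.00362). TSC22D2 fell with -0.25 (adjusted p = 0.0297). Leaving out 72 h A, 72 h B, 30 h A or 30 h B ended that call (adjusted p of 0.0746 to 0.124), and it was not made by DESeq2 or in the authors' deposited table. TSC22D3 was the lowest of the 4 per kilobase at both times.

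FKBP5 was not alone in its family. Of 12 other FKBP genes beside FKBP4 and FKBPL, 11 had a test, in which 6 fell, 1 rose and 4 missed the threshold, with a median log2 fold change of -0.34. FKBP7 had 287, 231 and 245 normalised counts at 72 h, against 599, 638 and 742 at 30 h, a log2 fold change of -1.37 ± 0.11 (SE; adjusted p = 9.05e-06). FKBP9 and FKBP14 fell with -0.72 and -0.49 (adjusted p = 1.15e-05 and 0.00115). FKBP7, FKBP9 and FKBP14 are folding enzymes of the endoplasmic reticulum, and FKBP14 acts on collagen. The collagen genes COL1A1 and COL1A2 also fell (-1.90 and -2.02, adjusted p = 0.000202 and 1.65e-06), and whether these falls are linked was not tested. The 4 that missed the threshold were FKBP1B, FKBP2, FKBP8 and FKBP11, with -0.25, 0.09, 0.10 and 0.01. FKBP3, a nuclear member, fell with -0.53 (adjusted p = 0.000196).

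A wider list of 44 genes that glucocorticoids induce in various tissues held 26 that passed the filter, of which 13 rose, 6 fell and 7 did not pass, with a median log2 fold change of 0.42. The share that rose was 50%, against 23.6% of all genes tested, and the share that fell was 23.1%, against 25.0%. The count of falls is thus near the share over all genes and is no result about the list. Since the list was chosen with earlier results of these data known, the share that rose is a description. Whether glucocorticoids or other signals raised these genes was not tested. PER1, a clock gene with a classical response element, had 160, 178 and 197 normalised counts at 72 h, against 127, 126 and 142 at 30 h (log2 fold change 0.43 ± 0.12 SE, adjusted p = 0.0124). DUSP1, a phosphatase that shuts off MAP kinases, had 2829, 2382 and 3304 at 72 h, against 1506, 1635 and 1900 at 30 h (0.75 ± 0.13, adjusted p = 0.00354). SGK1, a kinase of ion transport and survival, went the other way with 722, 657 and 763 at 72 h, against 1098, 1041 and 1316 at 30 h (-0.68 ± 0.09, adjusted p = 0.0003).

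KLF9, a zinc finger factor, had 363, 276 and 364 normalised counts at 72 h, against 238, 222 and 402 at 30 h, and the groups overlapped through 30 h C alone. Its log2 fold change was 0.26 ± 0.24 (SE; adjusted p = 0.428), and 0.53 (adjusted p = 0.00727) without that library. The changes of largest size by the naming rule were those of TNFAIP3, RASD1, MT1X and ANXA1. TNFAIP3, a brake on NF-kB, rose with 2.84 ± 0.23 (SE; adjusted p = 0.000229). RASD1, a small GTPase named for its induction by dexamethasone, had 122, 119 and 195 at 72 h, against 18.5, 20.3 and 21.1 at 30 h (2.76 ± 0.21, adjusted p = 8.14e-06). MT1X, a metallothionein whose reads may be split with close copies, rose with 2.23 ± 0.13 (adjusted p = 1.33e-06). ANXA1, a mediator of the anti-inflammatory effect of glucocorticoids, had 1186, 1572 and 1521 at 72 h, against 6076, 6073 and 4610 at 30 h (-1.97 ± 0.15, adjusted p = 0.000108).

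The other 5 that fell beside ANXA1 were CRISPLD2, LPIN1, METTL7A, SDPR and SGK1. METTL7A, with 8.17, 11.3 and 4.20 normalised counts at 72 h, against 45.8, 46.7 and 53.8 at 30 h, passed the filter through the 30 h libraries, so its direction was set by the filter. FKBP5 and TSC22D3 stand outside the list, with log2 fold changes of -0.98 and -0.08. Of the 18 that did not pass the filter, HIF3A, PCK1, SERPINA3 and STEAP4 had 0 reads in every library.

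**Figure D3:**
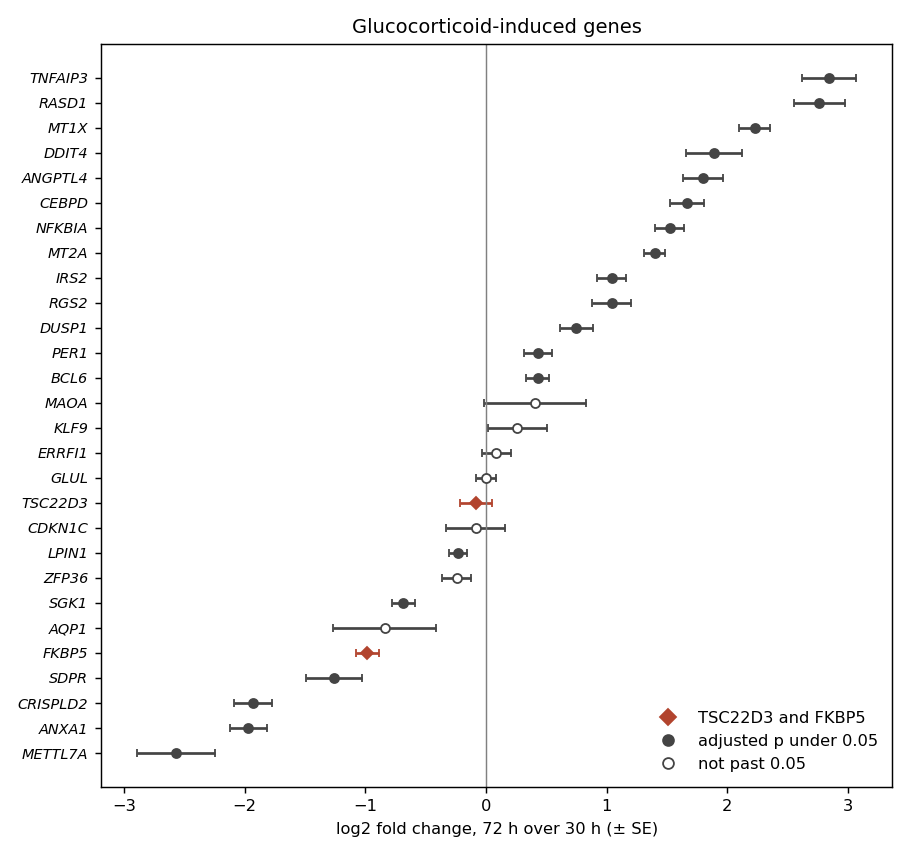
Log2 fold changes of 72 h over 30 h with their standard errors for the 26 tested genes of the glucocorticoid-induced list (circles, filled where the adjusted p is under 0.05) and for TSC22D3 and FKBP5 (diamonds, no test). The list runs from METTL7A, which passed the filter through the 30 h libraries, at -2.57 to TNFAIP3 at 2.84, with TSC22D3 at -0.08 and FKBP5 at -0.98.

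Most of the tested genes that glucocorticoids restrain in inflammation were higher at 72 h. Of 21 such genes listed, 16 had a test, and 3 (TNF, SELE and NOS2) had 0 reads in every library. Among the 16, 15 (93.75%) rose and 0 fell, against 23.6% and 25.0% of all genes tested, and VCAM1 alone did not pass. Their median log2 fold change was 3.76, and 0 fell at an unadjusted p under 0.05, by edgeR or by DESeq2. The largest changes by the naming rule were in the chemokine genes CCL20 (6.71, adjusted p = 3.29e-05) and CXCL1 (5.58, adjusted p = 0.00101), CSF3, a growth factor of neutrophils (6.68, adjusted p = 3.61e-05), and IL1B, a cytokine (5.53, adjusted p = 0.000227). In cultured fibroblasts interleukin 1 and tumour necrosis factor are known to raise HSD11B1, with C/EBP factors taking part. From a list of 6 such receptors and factors, 5 had a test, in which 4 rose and 1 fell, with a median log2 fold change of 0.52. CEBPB, a C/EBP factor, had 1846, 1988 and 2061 normalised counts at 72 h, against 1121, 1090 and 1276 at 30 h (0.76 ± 0.07 SE, adjusted p = 2.92e-05). CEBPD, of the induced list, had 234, 222 and 202 at 72 h, against 64.3, 61.0 and 82.3 at 30 h (1.66 ± 0.14, adjusted p = 1.54e-05). IL1R1, the receptor of interleukin 1, rose with 1.06 (adjusted p = 0.00392) and NFKB1, a subunit of NF-kB, with 0.52 (adjusted p = 0.000695), while TNFRSF1A, a receptor of tumour necrosis factor, fell with -0.29 (adjusted p = 0.00113), and TNF itself had 0 reads in every library. Whether these changes bear on HSD11B1 was not tested.

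**Figure D4:**
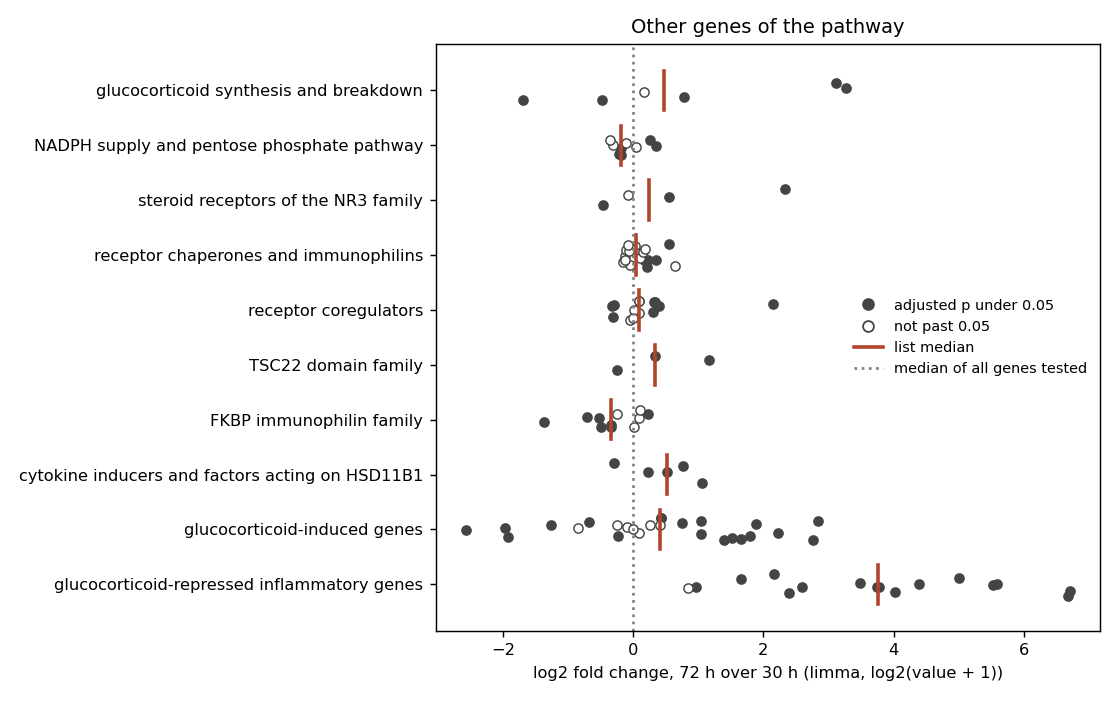
Log2 fold changes of 72 h over 30 h for the tested genes of each list (filled points are past an adjusted p of 0.05, open points are not; red bars are list medians, the dotted line is the median of all genes tested). List medians run from -0.34 for the FKBP family to 3.76 for the inflammatory genes that glucocorticoids repress.

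The genes most like each of the 5 were found from log2(value + 1) centred on each gene's mean, as the root-mean-square difference over the 6 libraries among tested genes with a mean of at least 50. For HSD11B1 they were GAREM1, an adaptor of growth factor receptors (0.0994 log2 units), and GDNF, a neurotrophic factor (0.168). GDNF had 556, 572 and 704 normalised counts at 72 h, against 35.1, 38.6 and 56.9 at 30 h. For FKBP5 they were SAV1, a scaffold of the Hippo pathway (0.0317), and TGFB1I1, a focal adhesion protein (0.0393). They were USP42 and DIP2B for H6PD (0.0225 and 0.0299), LUC7L and RHBDD1 for NR3C1 (0.0199 and 0.0235), and PUS3 and ANKRD13C for TSC22D3 (0.0191 and 0.0228). Over 2 groups of 3 libraries, such likeness rests mostly on the difference between the groups.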

How the data were processed

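Values in the deposited table are a normalised signal per gene and library, that is, reads over the library's size factor as the authors computed it. The submitters' processing notes name Trimmomatic 0.35, STAR 2.5.1b, the build GRCh38/hg38 and DESeq2 1.18.1. Which counter, gene annotation or strand setting was used is not given in these sources. Per the file headers, the authors' log2 fold changes, their errors, a test score and p-values stand in further columns. Dividing by the smallest value above 0 returned whole reads for 100% of values, within 0.01. Another 2 columns, which by their headers hold SDs, were not used.

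Genes with 10 or more normalised counts in 3 or more libraries were tested (13315 of 58219). Log2(value + 1) at 72 h and 30 h was compared over all 6 libraries with limma 3.58.1 under R 4.3.3, trend and robust being on, Benjamini-Hochberg adjustment running over all genes tested, and a threshold of 0.05. Fold changes are on this scale, which understates those of low genes. The alternatives used edgeR 4.0.16 and DESeq2 1.42.0 on the recovered reads, other added values, filters and scalings, and left out each library in turn. The steps were tested on simulated data, in which few genes were changed, unlike in these data. There 64.2% of 1.5-fold, 83.6% of 2-fold and 100% of 4-fold changes were called, and 0.1% of unchanged genes. A gene that did not pass the threshold may thus still differ by a small factor. Exon lengths (union over all transcripts) and overlaps are from GENCODE 29, promoter windows from RefSeq (GRCh38.p14).

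The 6 genes and the lists of related genes were chosen with earlier results of these data known. From each list, up to 4 called genes with the largest change and a group mean of 50 or more were named, and, whatever their value, HSD11B2, NR3C2, FKBP4, SLC37A4, PER1, DUSP1, SGK1 and KLF9. Others were named because a count was small or after their values were seen. Some genes of the lists are counted but not reported here by name.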

Additional observations from a re-analysis of the deposited data

How the results depend on the processing

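The 5 genes that passed the filter kept their direction under all 17 alternatives, and ZBTB16 had no reads. The alternatives reuse the same libraries from which the genes were chosen, so they describe only how the values depend on processing. The difference of TSC22D3 was smaller than its error, so its kept direction carries no weight. The log2 fold change ran from 3.68 (added value of 5) to 4.28 for HSD11B1, 0.44 to 0.55 for H6PD, 0.23 to 0.33 for NR3C1, -0.12 to -0.01 for TSC22D3 and -1.01 to -0.93 for FKBP5, and 4 genes were past the threshold each time. Over all genes 2450 to 3501 were higher and 2597 to 3465 lower. The letters were not used as pairs, since the labels do not say that a letter marks a shared culture or day. Deviations of same-lettered libraries correlated at 0.00696 for A, 0.172 for B and 0.185 for C. The fit with the replicate block left the log2 fold change of HSD11B1 at 3.95, with an SE of 0.19 in place of 0.26. It gave 3271 genes higher and 3452 lower, and moved no count of calls by over 1.5 times.

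Counts of falls in short lists moved. With no filter on low values they were 2 for the NR3 family (ESRRG added) and 1 for the chaperones (HSPA8), which was 1 also with quantile normalisation. With a mean of at least 50 required, the steroid synthesis list had 1, since ABCB1 was no longer tested. The sugar phosphate list had 1 in the authors' deposited table and with DESeq2, and the TSC22 family had 0 there and in limma without trend and robust options. Leaving out 1 library gave 1 to 3 falls in the sugar phosphate list, 0 to 1 among the chaperones and 0 to 1 in the TSC22 family. Apart from the design of each alternative, the cause was not tested. Genes under about 10 reads per library, such as HSD11B2 and ZBTB16, are limited by depth.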

Other observations

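FABP4, a fatty acid carrier of adipocytes and some endothelial cells, had 1, 0 and 1 reads at 72 h, against 31, 28 and 15 at 30 h, while ADIPOQ and LEP, other adipocyte genes, had 0 reads in every library. Among glucocorticoid-induced genes under the filter, those with the most reads, picked after their values were seen, went both ways. PDK4, a kinase that spares glucose, had 9, 14 and 12 reads at 72 h, against 0, 0 and 2 at 30 h, and KLF15, a zinc finger factor, had 9, 6 and 9 at 72 h, against 2, 1 and 1 at 30 h. FOXO1, a forkhead factor, had 8, 11 and 13 reads at 72 h, against 6, 5 and 7 at 30 h, and MERTK, a receptor for dying cells, had 4, 6 and 14 at 72 h, against 4, 1 and 1 at 30 h. ALPL, an alkaline phosphatase, had 0, 3 and 0 reads at 72 h, against 10, 18 and 6 at 30 h.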
